A study of Mus musculus with 4 samples.

Results

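The genes described here encode the machinery of neurotransmitter release at the presynaptic terminal. They are 48 named genes, taken as a list of symbols, and all 48 were found by symbol among the 45706 features counted. They were set in 5 groups by role: 9 genes of SNARE fusion and its regulators, 9 calcium sensors and C2 domain proteins, 15 active zone scaffolds and priming factors, 12 synaptic vesicle proteins and 3 genes of endocytosis.

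Nuclei came from the dentate gyrus of mice with a tamoxifen-inducible Cre recombinase and the CAG floxStop-Sun1/sfGFP reporter on a C57Bl/6J background, males and females of 6 to 8 weeks of age. Tamoxifen gave the Cre recombinase access to the nucleus, so that cells with Cre, and all their progeny, carried the Sun1-sfGFP tag on the nuclear membrane. Tagged nuclei were sorted 1, 2, 4 or 8 weeks later, which gave the cohorts w1, w2, w4 and w8. All cohorts had the same genotype and treatment, there was no untreated group, and each cohort was 1 library that pooled the left dentate gyri of 4 mice, so no test between weeks was possible. The animals of a pool cannot be told apart. The weeks were processed 2 at a time, and which weeks shared a day was not given. Between weeks of different days, week and day of processing cannot be told apart. Cre was not limited to the granule cell lineage, and the sort also held nuclei of oligodendrocytes and their precursors.

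At a synapse, vesicles filled with transmitter are tethered at the active zone by large scaffolds, primed by Munc13 and RIM proteins, and fused with the membrane when SNARE proteins on vesicle and membrane zip together. Synaptotagmins sense the calcium that enters with an action potential and trigger this fusion, complexins hold and release the SNARE complex, and NSF takes it apart afterwards. The vesicle membrane is then retrieved by endocytosis. Granule cells send their mossy fibre axons to CA3, where release is known for its strong facilitation, and newborn granule cells build these terminals while they mature.

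The clusters were those of the authors: astrocytes (Astro), radial glia-like cells (RGL), neural progenitor cells (NPC), neuroblasts (NB1, NB2), immature (GCimm1, GCimm2), young (GCyoung) and mature granule cells (GCmat1, GCmat2), pericytes (Peri), oligodendrocytes (Oligo) and their precursors (OPC). They were defined on the expression of the same nuclei, so that differences between them are not independent of how they were drawn. The 4 libraries held 2867 to 4243 of the 14367 nuclei and 13227971 to 28595331 UMIs, and median UMIs per nucleus ran from 4057.5 in NB1 to 8138 in GCmat1. Only w4 held at least 10 nuclei of every cluster from RGL to GCmat2, and 22 barcodes of the nuclei used occurred in 2 libraries. The genes of each marker list of a labelled type were highest in its own cluster or clusters, except for RGL (4 of 6 genes) and pericytes (3 of 4). Neuroblast and granule cell lists spanned several clusters. Icam5 and Tenm1 of the mature granule cell list were highest in GCyoung, at 165 and 988 CPM (UMIs scaled to a common total). Ntng1 of that list was highest in GCmat2, at 710. Prox1 and Rbfox3, the granule neuron list, were highest in NB1 (867) and NB2 (1004). In Peri the pericyte list summed to 111 CPM with Rgs5 at 0, against 5291 for the vascular leptomeningeal list. Oligodendrocyte markers stayed between 71.0 and 119 CPM in every cluster from RGL to GCmat2. The interneuron list went from 342 in NB1 to 2640 in GCmat1, of which 2566 were Adarb2, while Gad2, Slc32a1 and Lhx6 were at 0.754, 0.137 and 0.0343 in GCmat1. The mossy or pyramidal cell list went from 374 CPM in NPC to 940 in NB1 and 1337 in NB2, then to 927 in GCimm1, 608 in GCimm2, 373 in GCyoung and 304 in GCmat1. The part of these lists in the results below was not tested.

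Of the 48 genes, 37 had an entry in the RefSeq promoter table (GRCm38.p6), with 47 windows in all of 250 bases before to 50 bases after a start site. These windows were rich in G and C, with a median of 62% against 52.7% over all 32851 windows of the table. The GC box (GGGCGG, either strand) lay in a window of 30 of the 37 genes, or 81.1%, against 38.2% of all genes in the table. The left part of the RE1 element bound by the neuronal repressor REST (CAGCACC) was in 6 of the 37 (16.2%), against 8.14% of all genes, and the right part (GGACAG) in 8 (21.6%), against 24.7%. The whole element (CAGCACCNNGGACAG) matched in none of the 37 and in 0.0407% of all genes, and among the 37 the cyclic AMP response element (CRE, TGACGTCA) matched only Syn1 (2.7%, against 2.03% of all genes). The RE1 parts were also counted where the whole element would hold them. A match is a string of letters and no evidence of binding. The whole element was searched as an exact string, found in only 12 of the 32851 windows, and a site with any letter changed was not counted. Its lack in the 37 genes, Syn1 included, is therefore no evidence that they have no RE1 site. The 250 bases upstream of 4 genes are shown, because Syn1 held the CRE, Sv2b and Sv2c are paralogs found at opposite stages, and Rimbp2 had the largest change. Capitals mark matches to the CRE, to either part of RE1 or to the GC box on either strand. Syn1 lies at chrX:20920919-20921168, Sv2c at chr13:96132578-96132827, Sv2b at chr7:75309263-75309512 and Rimbp2 at chr5:128953487-128953736, all on the minus strand and written 5′ to 3′ in the direction of transcription.
Syn1: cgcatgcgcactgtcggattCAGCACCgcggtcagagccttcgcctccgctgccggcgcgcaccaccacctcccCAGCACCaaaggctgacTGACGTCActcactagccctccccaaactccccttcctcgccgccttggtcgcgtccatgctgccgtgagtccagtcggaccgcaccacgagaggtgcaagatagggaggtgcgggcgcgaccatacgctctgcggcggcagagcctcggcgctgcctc
Sv2c: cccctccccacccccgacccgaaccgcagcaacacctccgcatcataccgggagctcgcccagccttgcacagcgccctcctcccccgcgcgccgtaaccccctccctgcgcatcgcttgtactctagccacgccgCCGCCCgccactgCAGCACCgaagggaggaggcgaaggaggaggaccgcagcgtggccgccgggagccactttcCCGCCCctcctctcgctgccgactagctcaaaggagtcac
Sv2b: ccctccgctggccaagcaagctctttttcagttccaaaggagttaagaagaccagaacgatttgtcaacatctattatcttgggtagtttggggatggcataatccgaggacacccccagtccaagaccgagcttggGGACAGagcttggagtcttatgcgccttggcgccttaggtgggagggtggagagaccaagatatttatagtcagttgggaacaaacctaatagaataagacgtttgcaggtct
Rimbp2: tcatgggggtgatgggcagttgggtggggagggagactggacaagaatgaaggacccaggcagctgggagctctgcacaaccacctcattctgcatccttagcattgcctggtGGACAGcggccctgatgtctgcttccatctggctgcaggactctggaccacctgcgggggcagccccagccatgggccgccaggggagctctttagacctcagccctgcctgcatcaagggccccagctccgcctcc
Syn1 had 2 matches to the left part of RE1 and 1 to the CRE, Sv2c had 1 match to the left part of RE1 and 2 to the GC box, and Sv2b and Rimbp2 each had 1 match to the right part of RE1, all within the bases shown. The window shown for Sv2b is the most upstream of its 4, and a GC box lies at positions 22 to 27, counted from 1 at that start site, outside the bases shown.

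The summed level of the release genes went up along the trajectory. Levels are given as CPM, the UMIs of a gene scaled to the same total in every sum of nuclei. The 48 genes summed to 2664 CPM in RGL (2450 to 2951 over libraries), 5245 in NPC (5132 to 5452), 7950 in NB1 (7891 to 8018), 10564 in GCimm1 (10016 to 11124), 13444 in GCimm2 (13210 to 13903), 17233 in GCyoung (17061 to 17404) and 17282 in GCmat1 (16483 to 18597). Libraries did not overlap between neighbouring clusters up to GCyoung, and GCyoung lay inside the range of GCmat1. Nuclei outside the neuronal lineage had far less, with 1390 in Peri, 1902 in Oligo and 2021 in Astro, although OPC reached 6726. The level in OPC (6281 to 7118 over libraries), between those of NPC and NB1, came in large part from active zone genes, which summed to 4187 CPM there. UMIs of nuclear RNA depend on gene length, and a few members such as Erc2 and Ppfia2 made up much of these sums, which say nothing on the amounts of the proteins.

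**Figure D1:**
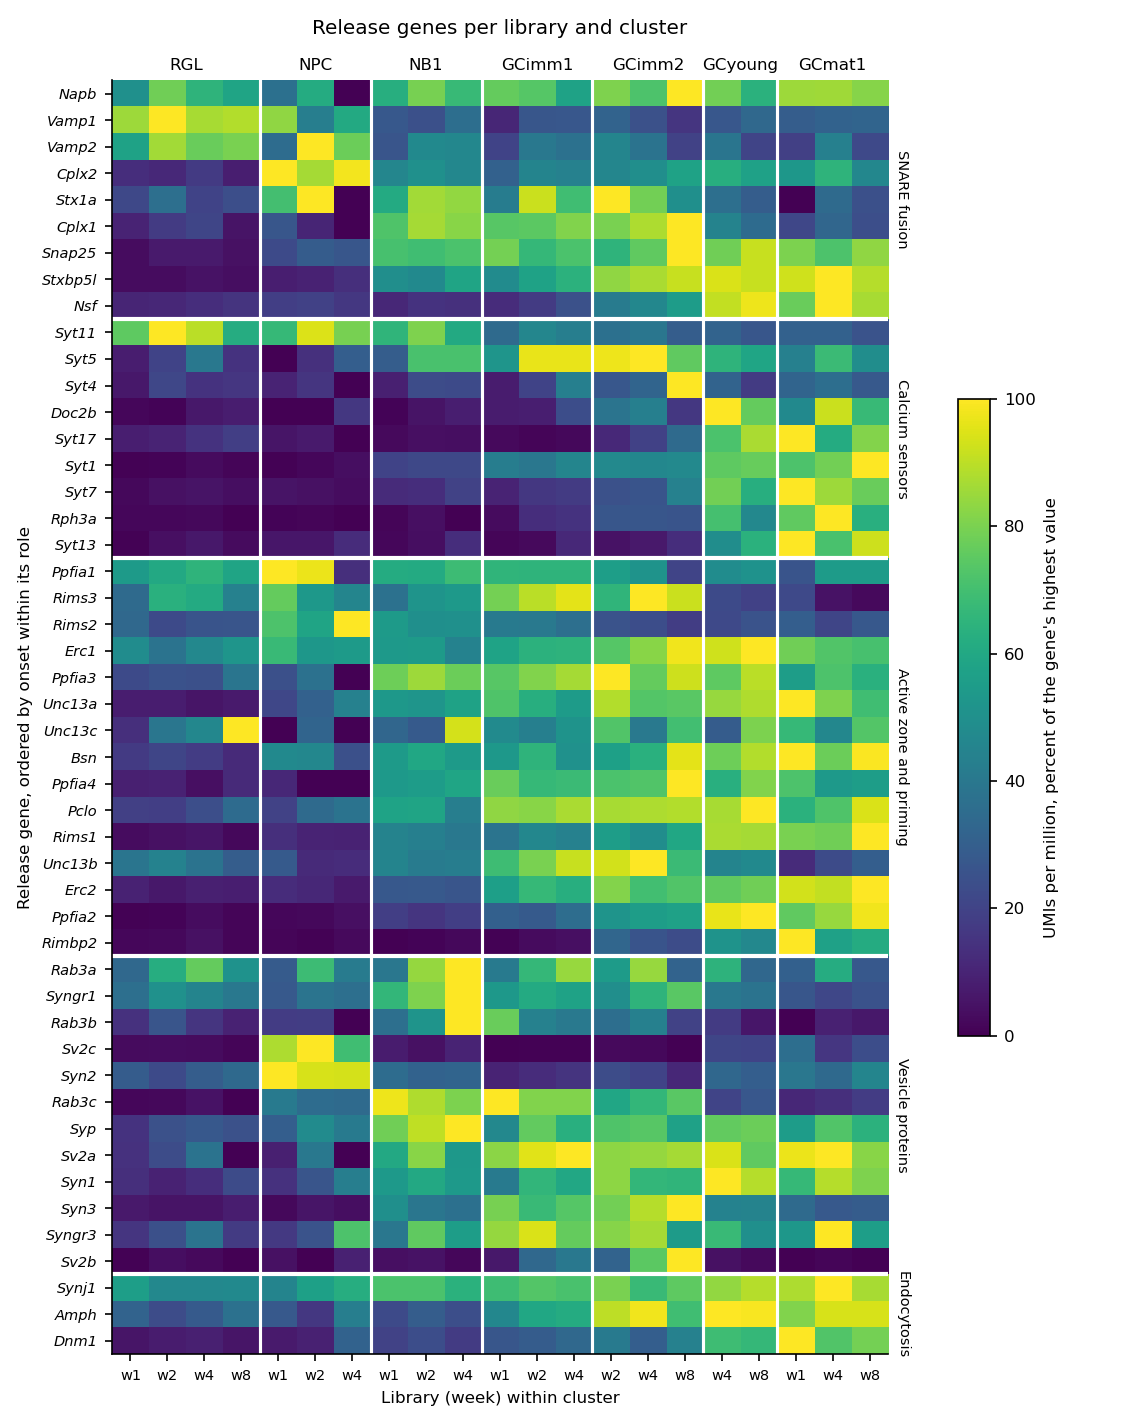
Levels of the 48 release genes (rows, in 5 role groups and by pseudo-time of onset within each) in each library of the clusters RGL to GCmat1 (columns), as CPM in percent of the gene's highest value. Libraries of one cluster differ for some genes, such as Stx1a in NPC, Sv2b in GCimm1 and GCimm2 and Rimbp2 in GCmat1. The bright cells move from RGL and NPC for Vamp1, Cplx2, Rims2, Syn2 and Sv2c to GCyoung and GCmat1 for Nsf, Syt7, Syt13, Syt17, Rph3a, Doc2b, Rimbp2 and Dnm1.

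Changes between clusters were tested in 1 fit over 29 sums of UMIs per library and cluster, and a gene was called where its adjusted p did not exceed 0.05 and it changed at least 1.5-fold. From NB1 to GCmat1, 27 of the 48 genes rose and 7 fell, while 20.2% of all 13513 genes tested rose and 19.9% fell. The median change was 0.89 (log2) over the 48 and -0.04 over all genes. Both clusters were present in 2 libraries only, w1, where GCmat1 had 17 nuclei, and w4, and without w4 22 of the 48 were called, with 3505 of all genes against 5423. The balance of rises and falls depended on scaling. The fit normalizes to the bulk of genes (TMM), and with library totals alone the median of all genes shifted by -0.59, with 1578 genes higher and 5760 lower. On that scale 18 release genes were higher and 11 lower. The 9 rises lost were those of Syn2, Sv2a, Syngr3, Cplx2, Vamp1, Napb, Pclo, Erc1 and Synj1, and Stx1a, Unc13b, Rims2 and Rab3a were called lower. Called genes kept their sign on both scales at all 9 comparisons. Levels below are given in CPM, that is by totals, and changes are from the fit, so that a change can differ from the ratio of the levels. The median of all genes shifted by 0.29 at RGL to NPC, -0.26 at NPC to NB1, -0.13 at NB1 to GCimm1, -0.17 at GCimm1 to GCimm2, -0.26 at GCimm2 to GCyoung and -0.04 at GCyoung to GCmat1.

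Among the 6 steps from RGL to GCmat1, rises were most numerous from NPC to NB1 on both scales and by DESeq2. From NPC to NB1, where progenitors become neuroblasts, 26 release genes rose and 4 fell (14.7% and 14.6% of all genes, median change 1.27 against 0.06). The rises included 9 of the 15 active zone genes and 8 of the 12 vesicle proteins. By library totals 21 rose and 5 fell, against 1380 and 2743 of all genes. From GCimm2 to GCyoung, 16 rose and 8 fell (9.27% and 9.62%, median 0.34 against 0.03). Without w4 8 release genes were called at this step, while calls over all genes went from 2553 to 487. DESeq2 gave 9 rises and 7 falls there, and library totals 10 rises and 9 falls, with 776 and 2233 over all genes. From RGL to NPC 11 rose and 3 fell (13.7% and 15.9%), from NB1 to GCimm1 14 rose and 3 fell (7.76% and 4.75%). By library totals these steps gave 13 rises and 2 falls (2894 and 1492 over all genes) and 12 rises and 3 falls (864 and 933). From GCimm1 to GCimm2 11 rose and 0 fell (6.52% and 2.91%), 9 and 1 by library totals (687 and 863 over all genes). DESeq2 also gave 0 falls there, edgeR gave 1 at an unadjusted p of 0.05, and without w2 6 genes were called, with 410 of all genes against 1274. Between GCyoung and GCmat1 1 gene rose and 4 fell (1.60% and 2.25%), with 0 rises and 6 falls by library totals (204 and 352 over all genes). No release gene was called there without w4, when GCyoung had 1 library of 188 nuclei, and 1 without w8, while calls over all genes went from 520 to 216 and 219.

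**Figure D2:**
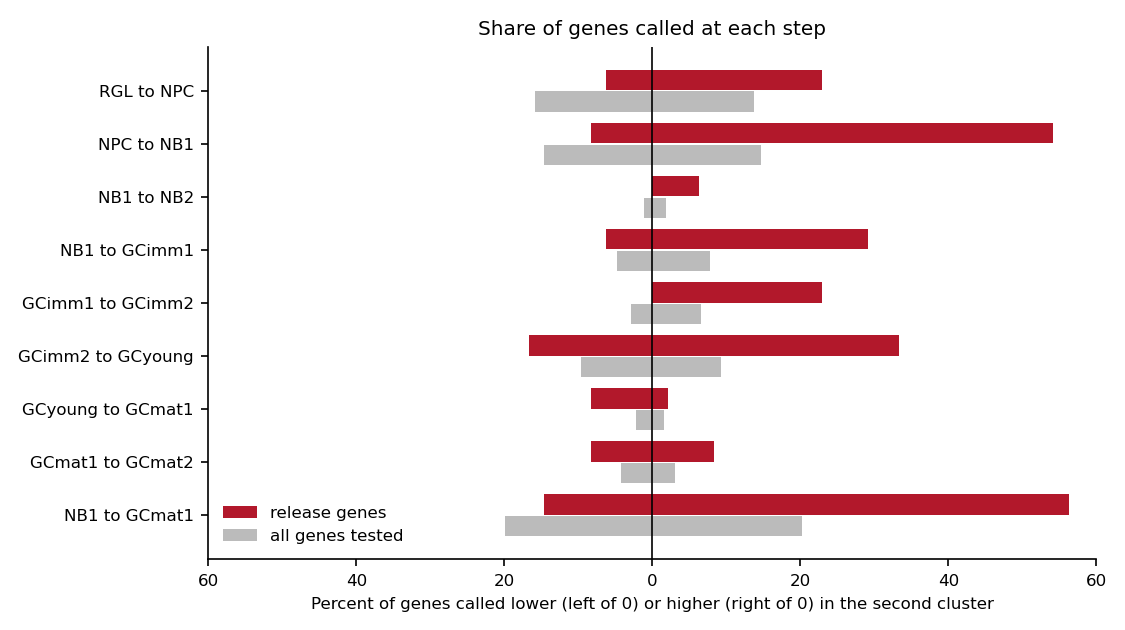
Share of the 48 release genes (red) and of all 13513 genes tested (grey) called higher (right of 0) or lower (left of 0) in the second cluster of each comparison in percent, by the thresholds given above. The red bars reach furthest to the right at NPC to NB1 and NB1 to GCmat1, with 26 and 27 of 48 genes.

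Among the genes of SNARE fusion, Snap25, the SNARE of the plasma membrane, was on early. It had 29.6 to 64.8 CPM in the 4 RGL libraries, 200 to 259 in the 3 of NPC, 614 to 636 in the 3 of NB1 and 639 to 738 in the 3 of GCmat1. The groups did not overlap up to NB1, and Snap25 rose from RGL to NPC (log2 1.93 ± 0.24, SE) and from NPC to NB1 (1.70 ± 0.22), after which no step passed the test. The share of nuclei with at least 1 Snap25 UMI went from 17.4% in RGL to 87.6% in NB1 and 98.3% in GCmat1. The share in Oligo, taken to lack the gene, was 13.3% at a median of 4801 UMIs per nucleus. The interval of that share, 5.05% to 26.8%, is wide and holds the share in RGL. The part of background in the RGL value was not tested. The syntaxin Stx1a kept low levels, with 24.5, 34.5 and 33.6 CPM in NB1 of w1, w2 and w4 and 0, 13.9 and 9.79 in GCmat1 of w1, w4 and w8. It rose from RGL to NPC (1.20 ± 0.41, adjusted p = 0.021), although the NPC library of w4 had no UMI. It fell from GCimm2 to GCyoung (-0.83 ± 0.26, adjusted p = 0.017), which was not called without w4. The vesicle SNAREs Vamp1 and Vamp2 and the SNARE adaptor Napb reached 50% of their highest level already in RGL, the earliest onset in this group. In Oligo of w2, w4 and w8 Vamp1 had 37.5, 13.1 and 0 CPM, Vamp2 56.3, 39.4 and 30.0 and Napb 18.8, 52.6 and 59.9. The part of background in these RGL levels was not tested. Vamp1 had 37.0, 43.2, 37.5 and 38.2 CPM in RGL and 11.9, 10.5 and 15.7 in NB1, and fell from NPC to NB1 (-1.05 ± 0.37, adjusted p = 0.024), a call not made without w1 (-0.55, adjusted p = 0.61), with thinned nuclei (-0.61, adjusted p = 0.49) or without a filter on low counts (-0.91, adjusted p = 0.10). Vamp2 passed the test at none of the 6 steps from RGL to GCmat1, although by library totals it was called lower from NPC to NB1 (-0.81, adjusted p = 0.023), with 39.1 to 58.3 in RGL and 12.8 to 29.4 in GCmat1. Napb fell from RGL to NPC (-0.87 ± 0.32, adjusted p = 0.032), from 30.0, 47.0, 39.0 and 35.1 to 22, 37.0 and 0, a call not made without w1, w2 or w4 (-0.63 to -1.13, adjusted p from 0.074 to 0.20), with thinned nuclei (-0.84, adjusted p = 0.16) or by library totals (-0.59, adjusted p = 0.16).

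The complexins split. Cplx2 had its highest level in NPC, with 267, 231 and 262 CPM in w1, w2 and w4, against 22.3 to 45.6 in RGL, and then 123, 134 and 123 in NB1. It rose 5.86-fold from RGL to NPC (2.55 ± 0.20, adjusted p = 1.3e-15) and fell from NPC to NB1 (-0.74 ± 0.18). Cplx1 came one step later, from 0 to 16 in NPC to 43.4, 51.9 and 49.3 in NB1 (2.34 ± 0.39), and was down to 12.8, 19.7 and 14.4 in GCmat1. Nsf, the ATPase that recycles SNAREs, had the latest onset of the group. It had 108, 140 and 134 CPM in NB1, 401, 446 and 533 in GCimm2 of w2, w4 and w8, 874 and 940 in GCyoung of w4 and w8 and 743, 963 and 838 in GCmat1. Nsf rose 8.62-fold from NB1 to GCmat1 (3.11 ± 0.20, adjusted p = 5.4e-19), with steps past the test at GCimm1 to GCimm2 (1.33 ± 0.19) and GCimm2 to GCyoung (1.21 ± 0.20). Nsf and Stxbp5l each overlap 1 gene on the same strand, so their UMIs may hold some of that gene. Stxbp5l, a tomosyn that holds SNAREs back, rose at 3 steps, from 31.3 to 49.3 in RGL to 871 to 980 in GCmat1, although by library totals its change from GCimm1 to GCimm2 (0.57) was under the fold threshold. In all, 5 of the 9 genes rose from NB1 to GCmat1 (Vamp1, Stxbp5l, Cplx2, Nsf and Napb) and 1, Cplx1, fell, against 20.2% and 19.9% of all genes. By library totals 2 rose, Stxbp5l and Nsf, and 2 fell, Cplx1 and Stx1a, against 1578 and 5760 of all 13513 genes.

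Calcium sensors and C2 domain proteins were the latest group. Of the 9, 6 rose and 1 fell from NB1 to GCmat1 (20.2% and 19.9% of all genes), with a median change of 2.99. By library totals 6 rose and 1 fell too, against 1578 and 5760 of all 13513 genes. Onset was in GCyoung for 5 of the 9. Syt1, the fast sensor of synchronous release, had 13.9, 32.4, 93.5 and 38.2 CPM in RGL and 22, 55.5 and 118 in NPC. It then went to 642, 685 and 679 in NB1, to 1342, 1255 and 1439 in GCimm1 and to 2273, 2489 and 3160 in GCmat1 of w1, w4 and w8. All NB1 libraries lay above all NPC libraries, and Syt1 rose 17.1-fold at this step (log2 4.09 ± 0.40, adjusted p = 3.5e-12) and again at NB1 to GCimm1 (1.11 ± 0.27). Syt1 UMIs were found in 62.3% of NB1 and 100% of GCmat1 nuclei, and with every nucleus thinned to 2000 UMIs in 51.7% and 99.3%. In RGL the share was 13.2% and in Oligo 22.2% (10 of 45 nuclei, 95% interval 11.2% to 37.1%). The Syt1 level in RGL was highest in w4 among the libraries, as was that of Ppfia2 (18.7, 35.7, 124 and 57.4 in w1, w2, w4 and w8). The part of free RNA in the RGL levels was not tested.

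Rph3a, a Rab3 effector with C2 domains, had 2.99, 8.07 and 0 CPM in NB1, 6.11, 27.0 and 29.5 in GCimm1, 54.9, 54.8 and 53.3 in GCimm2, 143 and 95.5 in GCyoung and 154, 204 and 129 in GCmat1. It rose at every step from NB1 to GCyoung, by 2.10 ± 0.27, 1.23 ± 0.20 and 1.63 ± 0.21 (log2), and 45.5-fold from NB1 to GCmat1 (5.51 ± 0.27, adjusted p = 2.1e-23). Rph3a overlaps 1 gene on the same strand. Syt17, an atypical synaptotagmin, was at 4.24, 6.85 and 6.72 in NB1 and 4.58, 2.65 and 3.69 in GCimm1 before it came on. It reached 20.2, 33.2 and 59.96 in GCimm2, 124 and 151 in GCyoung and 173, 106 and 141 in GCmat1, and rose by 3.19 ± 0.28 at GCimm1 to GCimm2, 2.26 ± 0.20 at GCimm2 to GCyoung and 4.60 ± 0.26 from NB1 to GCmat1. Before the neuronal stages it was not at 0, with 14.8 to 31.9 in RGL and 21.7 to 53.4 in Astro. Syt13 had the latest onset of all 48, at a pseudo-time of 27.1. It had 4.99, 6.90 and 13.3 in GCimm2, 50.4 and 65.5 in GCyoung and 102, 72.9 and 94.7 in GCmat1, and rose 7.16-fold at GCimm2 to GCyoung (2.84 ± 0.32, adjusted p = 4.9e-10). Its further rise to GCmat1 (0.71 ± 0.20, adjusted p = 0.024) was not called without w4 (0.69, adjusted p = 0.40), without w8 (0.76, adjusted p = 0.31), by library totals (0.65, adjusted p = 0.085), by DESeq2 (1.22, adjusted p = 0.55), with thinned nuclei (0.63, adjusted p = 0.21) or without the library term (0.63, adjusted p = 0.61).

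Doc2b and Syt7, sensors with high calcium affinity linked to spontaneous and asynchronous release, were also highest in GCyoung and GCmat1. Syt7 went from 50.8, 53.6 and 80.7 in NB1 to 102, 107 and 180 in GCimm2 and 410, 349 and 316 in GCmat1, and rose 7.94-fold from NB1 to GCmat1 (2.99 ± 0.18). Doc2b went from 0.943, 4.16 and 6.72 to 38.4, 74.6 and 54.7 (4.40 ± 0.36), after 81.3 and 62.0 in GCyoung. Syt11, a synaptotagmin that does not bind calcium, was the exception. It was at 186, 248, 222 and 153 in RGL, 162, 199 and 150 in NB1, 85.5, 113 and 106 in GCimm1 and 76.8, 76.8 and 63.5 in GCmat1, the earliest onset of the group. Its fall from NB1 to GCimm1 (-0.65 ± 0.14, adjusted p = 0.00047) was not called without w1 (-0.56, under the fold threshold) or without w2 (-0.64, adjusted p = 0.063). Syt4 stayed at or under 20.0 CPM in every library from RGL to GCmat1 and passed the test at no step, and Syt5 was highest in GCimm2, at 42.9, 44.0 and 33.3.

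Active zone genes were mixed in time. Rimbp2, which ties RIM proteins to calcium channels, had the largest change of the 48. It had 1.10, 4.16 and 11.2 CPM in NB1 of w1, w2 and w4 and 3.05, 14.0 and 19.7 in GCimm1, then 161, 126 and 113 in GCimm2 of w2, w4 and w8, 250 and 227 in GCyoung and 487, 278 and 298 in GCmat1. All GCimm2 libraries lay above all those of GCimm1. Rimbp2 rose by 2.29 ± 0.41 at NB1 to GCimm1, 3.46 ± 0.26 at GCimm1 to GCimm2 and 7.30 ± 0.34 from NB1 to GCmat1 (adjusted p = 2.6e-24), a 158-fold change whose size rests on few UMIs in NB1. Rimbp2 overlaps 1 gene on the same strand. DESeq2 did not call its change from NB1 to GCimm1 (1.69, adjusted p = 0.20). The share of nuclei with a UMI went from 1.01% in NB1 to 52.6% in GCimm2 and 86.9% in GCmat1, with 4.44% in Oligo. Its onset at a pseudo-time of 24.4 was the latest in this group. The liprin Ppfia2 and the scaffold Erc2 rose earlier and reached high levels. Ppfia2 had 696, 588 and 706 in NB1, 1953 to 2152 in GCimm2 and 2850, 3181 and 3692 in GCmat1, and Erc2 had 798, 806 and 757 in NB1 and 2690, 2620 and 2885 in GCmat1. They rose 5.89-fold and 4.76-fold from NB1 to GCmat1. Ppfia4, a neuronal liprin, came on at NB1, from 6.01, 0 and 0 in NPC to 28.8, 29.4 and 31.4 (3.36 ± 0.58, adjusted p = 5.8e-06). The size of this change rests on few UMIs in NPC.

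The very large scaffolds Bsn and Pclo, which organise the cytomatrix of the active zone, changed little beside these. Bsn went from 87.2, 95.6 and 87.4 in NB1 to 160, 124 and 159 in GCmat1 (1.16 ± 0.18) and Pclo from 280, 281 and 206 to 307, 349 and 453 (0.91 ± 0.21, not called by library totals). Both overlap other genes on the same strand. Ppfia1 and Rims3 had the earliest onset by pseudo-time, and by cluster these and Unc13c, which has few UMIs, started in RGL. Ppfia1, the ubiquitous liprin, passed the test at no step, with 53.5 to 64.0 in RGL and 25.6, 54.1 and 53.9 in GCmat1. Erc1 passed at no single step either, and rose from NB1 to GCmat1 (0.94 ± 0.18) but not by library totals.

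Some genes of the active zone and priming group were left behind by mature cells. Rims3, a short RIM protein, was at 22.9, 25.9 and 27.7 CPM in GCimm1 and 19.0, 28.9 and 26.6 in GCimm2, and at 6.46 and 5.58 in GCyoung and 6.40, 1.39 and 0.75 in GCmat1. GCyoung lay wholly below GCimm2. Rims3 fell from GCimm2 to GCyoung (log2 -1.68 ± 0.30, adjusted p = 1.9e-05), which was not called without w4 (-1.46, adjusted p = 0.54), and from GCyoung to GCmat1 (-2.46 ± 0.44, adjusted p = 0.00011), not called without w4 (-2.64, adjusted p = 0.076), without w8 (-1.96, adjusted p = 0.085) or with thinned nuclei (-2.33, adjusted p = 0.097). From NB1 to GCmat1 it fell by 3.16 ± 0.47, from 10.8, 14.9 and 15.7. Unc13b, the Munc13-2 priming factor, moved down, up and down again. It went from 80.02, 91.1, 78.0 and 60.6 in RGL to 58.1, 24.6 and 26.2 in NPC (-1.21 ± 0.29, adjusted p = 0.00098, not called without w2, -0.77, adjusted p = 0.12, or with thinned nuclei, -0.92, adjusted p = 0.0501). It rose to 92.7, 85.6 and 87.4 in NB1 (1.31 ± 0.29) and 142, 164 and 188 in GCimm1 (1.02 ± 0.17), and stood at 191, 205 and 140 in GCimm2. It then fell to 92.7 and 97.6 in GCyoung (-0.76 ± 0.20), a fall not called without w4. A further fall, to 25.6, 46.9 and 61.4 in GCmat1 (-0.75 ± 0.19, adjusted p = 0.012), was not called without w4 (-0.70) or by DESeq2 (-0.83, adjusted p = 0.067). In GCmat2 Unc13b was at 135 and 86.7. Unc13a, the Munc13-1 form, rose at RGL to NPC and NPC to NB1 and stayed up, with 179, 145 and 124 in GCmat1, and it overlaps 1 gene on the same strand. Unc13c stayed under 10 CPM in every library of the main path from RGL to GCmat1.

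Rims1 and Rims2, whose proteins recruit Munc13 and calcium channels, changed places in level. Rims2 was highest in NPC, at 820, 665 and 1140 CPM against 254 to 387 in RGL (1.11 ± 0.18), and then stood at 623, 569 and 571 in NB1 and 339, 238 and 314 in GCmat1. Rims1 had 38.2 to 95.0 in RGL, 222, 166 and 157 in NPC, 748, 722 and 668 in NB1 and 1332, 1303 and 1667 in GCmat1, and rose at RGL to NPC (1.17 ± 0.27), NPC to NB1 (2.15 ± 0.26) and GCimm2 to GCyoung (1.00 ± 0.25). Ppfia3, a further liprin, rose at NPC to NB1 only, to 44.9, 49.2 and 44.8, and had 32.0, 41.6 and 36.5 in GCmat1.

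**Figure D3:**
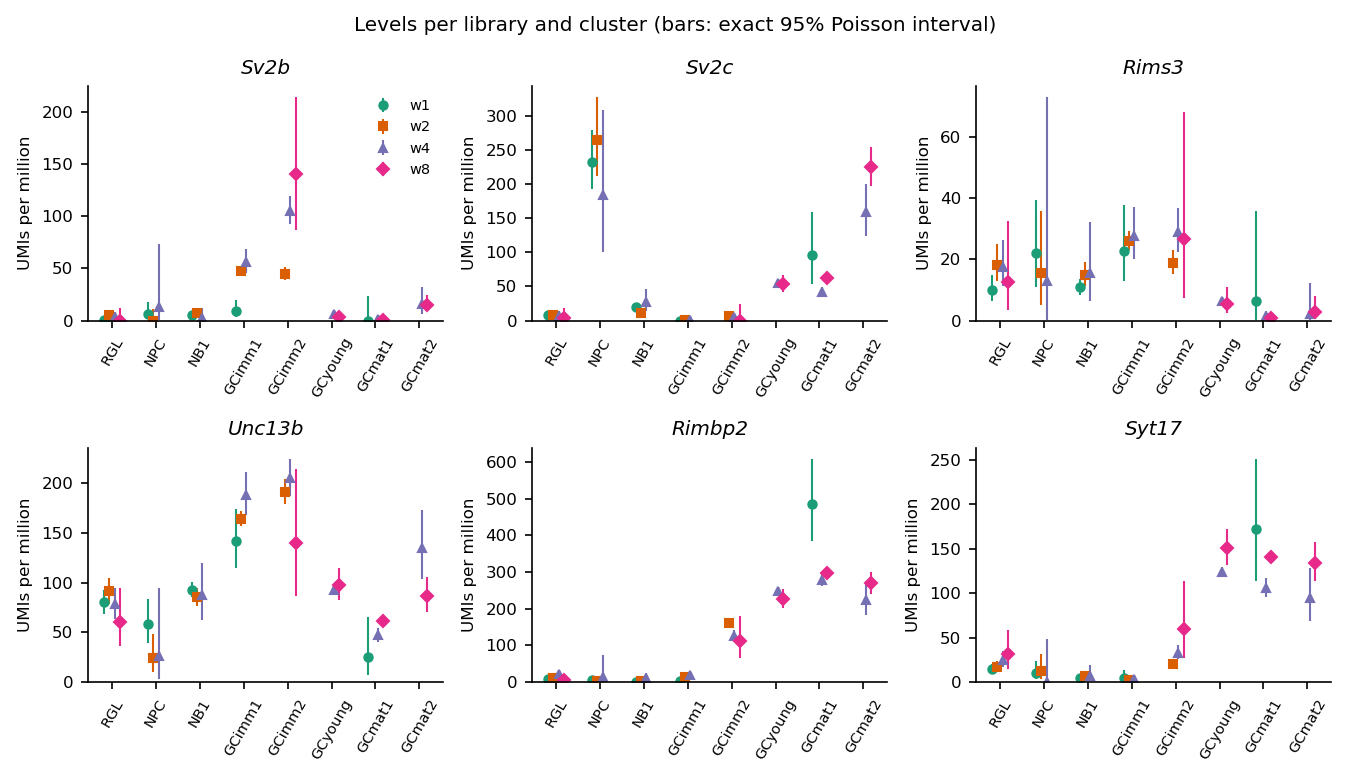
CPM (linear axes) of 6 release genes in each library with at least 10 nuclei of a cluster, with exact 95% Poisson intervals, which cover counting error only. Sv2b and Unc13b peak in GCimm2, Rims3 drops after GCimm2, Sv2c is high in NPC and again from GCyoung on, and Rimbp2 and Syt17 rise from GCimm2; the wide bars of w1 GCmat1 and w8 GCimm2 come from few nuclei.

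Vesicle proteins gained some members and lost others. Of the 12, 5 rose and 4 fell from NB1 to GCmat1 (20.2% and 19.9% of all genes), with a median change of 0.03. By library totals the rises of Syn2, Sv2a and Syngr3 were lost and Rab3a was called lower. This left 2 rises and 5 falls, against 1578 and 5760 over all 13513 genes. Sv2c, a vesicle glycoprotein, was high in NPC, at 232, 265 and 183 CPM in w1, w2 and w4 against 3.19 to 8.93 in RGL, a 24.4-fold rise (log2 4.61 ± 0.29, adjusted p = 1.6e-18). It then stood at 20.3, 11.7 and 26.9 in NB1 (-3.54 ± 0.25), at 0, 1.46 and 1.23 in GCimm1 (-3.40 ± 0.41) and at 6.78, 5.18 and 0 in GCimm2. The rise at this last step (2.27 ± 0.51) was not called without w2 (2.49, adjusted p = 0.36) or with thinned nuclei (1.70, adjusted p = 0.26). Sv2c came back to 54.9 and 53.0 in GCyoung (3.23 ± 0.33, adjusted p = 3.5e-11) and 96.1, 42.4 and 62.4 in GCmat1. The share of nuclei with an Sv2c UMI was 43.1% in NPC, 0.532% in GCimm1 and 30.5% in GCmat1, and 0 of 45 nuclei in Oligo (exact 95% interval up to 7.87%). Sv2c overlaps 1 gene on the same strand.

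Its paralog Sv2b was present where Sv2c was low. Sv2b had 5.81, 6.85 and 2.24 CPM in NB1, 9.16, 47.2 and 56.0 in GCimm1 of w1, w2 and w4, 44.7, 105 and 140 in GCimm2 of w2, w4 and w8, 6.33 and 3.49 in GCyoung and 0, 1.94 and 0.434 in GCmat1. Within GCimm1 and GCimm2 the older cohorts had the higher values, although with 1 pool a week this was not tested. Sv2b rose from NB1 to GCimm1 (2.51 ± 0.32, adjusted p = 1.4e-08) and fell 12.8-fold from GCimm2 to GCyoung (-3.68 ± 0.33, adjusted p = 8.1e-13) and from NB1 to GCmat1 (-3.35 ± 0.61). Its fall from GCyoung to GCmat1 (-2.88 ± 0.55, adjusted p = 0.00026) was not called without w4 (-2.79, adjusted p = 0.26), without w8 (-1.70, adjusted p = 0.32), by DESeq2 (-2.24, adjusted p = 0.24) or with thinned nuclei (-2.04, adjusted p = 0.18). Even at its peak only 28.1% of GCimm2 nuclei had an Sv2b UMI, 12.5% after thinning, against 2.22% of Oligo nuclei. Onset was at a pseudo-time of 17.6, the latest of the vesicle proteins, while Syngr1 and Rab3a were at 50% of their highest level in RGL.

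The synapsins, which tie vesicles to one another and to the cytoskeleton, took turns. Syn2 was highest in NPC, at 1206, 1134 and 1127 CPM against 271 to 411 in RGL. It fell to 429, 380 and 388 in NB1 (-1.27 ± 0.22, adjusted p = 4.0e-06) and 119, 154 and 180 in GCimm1 (-1.24 ± 0.22, adjusted p = 1.3e-05), and was back at 480, 413 and 551 in GCmat1. Syn3 moved the opposite way, from 24.0, 64.7 and 39.3 in NPC to 552, 439 and 410 in NB1 (3.78 ± 0.29, adjusted p = 7.6e-16), 884, 754 and 819 in GCimm1 (0.93 ± 0.18) and 876, 987 and 1112 in GCimm2. Syn3 then fell to 495 and 498 in GCyoung (-0.71 ± 0.21), which was not called without w4. Syn1 rose at NPC to NB1 (1.65 ± 0.32) and GCimm2 to GCyoung (0.69 ± 0.21; by library totals 0.44, adjusted p = 0.083, not called) and had 102, 136 and 123 in GCmat1. Syn1 and Syn2 each overlap 1 gene on the same strand.

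Of the Rab3 GTPases, which bring vesicles to the active zone, Rab3c was highest from NB1 to GCimm1. Rab3c had 0 to 16.2 CPM in RGL, 140, 120 and 118 in NPC, 332, 300 and 273 in NB1, 202, 225 and 253 in GCimm2, 70.2 and 92.7 in GCyoung and 38.4, 46.3 and 59.98 in GCmat1. It rose 12.1-fold from RGL to NPC (log2 3.59 ± 0.30, adjusted p = 2.9e-14), and fell from GCimm2 to GCyoung (-1.28 ± 0.21, adjusted p = 4.5e-06) and from NB1 to GCmat1 (-2.05 ± 0.22, adjusted p = 1.4e-11). The first of these falls was not called without w4 (-1.16, adjusted p = 0.068). Rab3a passed the test at no step, with 21.3, 39.0, 47.9 and 31.9 in RGL, 24.8, 52.8 and 62.7 in NB1 and 19.2, 38.8 and 17.3 in GCmat1, and was called lower from NB1 to GCmat1 by library totals (-0.70, adjusted p = 0.0038). Synaptophysin (Syp) rose at NPC to NB1 only among the steps (by library totals also at RGL to NPC), from 38.1, 61.6 and 52.4 to 100.2, 116 and 128, and had 70.4, 93.2 and 81.9 in GCmat1. Rab3b was low throughout and fell from NB1 to GCmat1 (-1.85 ± 0.47), from 12.3, 17.4 and 33.6 to 0, 3.05 and 2.13. The synaptogyrins differed, with Syngr1 at 47.5, 57.7 and 71.7 in NB1 and 19.2, 15.3 and 18.0 in GCmat1 (-1.26 ± 0.21) and Syngr3 at 14.5, 27.4 and 20.2 and then 19.2, 36.3 and 20.3. Sv2a came on at NB1 (2.07 ± 0.46), from 4.01, 18.5 and 0 in NPC to 27.8, 37.9 and 24.6, and had 44.8, 46.0 and 37.9 in GCmat1.

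The 3 genes of endocytosis all rose from NB1 to GCmat1, against 20.2% of all genes. By library totals 2 of them, Dnm1 and Amph, rose, against 1578 of all 13513 genes. Dnm1, the GTPase that cuts vesicles off, had 32.7, 39.4 and 29.1 CPM in NB1, 67.8, 49.6 and 73.3 in GCimm2, 115 and 111 in GCyoung and 166, 121 and 132 in GCmat1 (log2 2.44 ± 0.20), and its onset at 24.4 was the latest of the group. Amphiphysin (Amph) went from 69.0, 91.2 and 73.9 in NB1 to 250, 288 and 289 in GCmat1 (2.28 ± 0.21). Synaptojanin (Synj1) had its onset in RGL, at 94.4, 78.5, 78.8 and 79.7, and reached 147, 168 and 146 in GCmat1, a rise (1.04 ± 0.18) not called by library totals.

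Onset was set at the first cluster, or bin of pseudo-time, with 50% of the gene's highest level between RGL and GCmat1. By cluster, 31 of the 48 genes had their onset by NB1, 10 in GCimm1 or GCimm2, 7 in GCyoung and none in GCmat1. Of the 31, 10 were at 50% already in RGL, and Vamp1, Vamp2 and Syt11 among them were highest there. The 7 late genes were Rimbp2, Dnm1 and 5 of the calcium sensors and C2 domain proteins, Syt7, Syt13, Syt17, Rph3a and Doc2b. The highest level was reached in GCmat1 by 14 genes, in GCyoung by 10 and in GCimm2 by 8, while 15 of the 48 were below 50% of their highest level in GCmat1, 7 of them vesicle proteins. The median onset was at a pseudo-time of 11.1 over the 48, at 8.23 for SNARE genes and for vesicle proteins, 11.1 for the active zone, 17.1 for endocytosis and 24.4 for calcium sensors and C2 domain proteins. These counts are a description and depend on the threshold. They were not made over all genes, so they cannot be called particular to release genes. With 75% in place of 50%, 20 genes had their onset by NB1, 17 in GCimm1 or GCimm2 and 11 in GCyoung or GCmat1, and with the authors' log2 values, which hold 44 of the 48 genes, 17 had it by NB1 and 18 in GCimm1 or GCimm2. The bins left gaps between 1.70, 8.23 and 10.6 and between 20.4 and 24.4, so onset within these stretches could not be placed.

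The make-up of paralog families shifted with stage, as a share of the family's UMIs in each library. These shares do not depend on library scaling and were not tested. From NB1 to GCmat1, Unc13a went from 51.0% (49.9% to 51.7% over libraries) to 74.4% (64.5% to 84.8%) and Unc13b from 46.5% to 22.6%, after 81.0% in RGL. Rims1 went from 54.2% (53.2% to 55.3%) to 82.6% (79.4% to 84.5%) and Rims2 from 44.7% to 17.2%, after 79.1% in RGL. In both families the shares of these genes in NB1 and GCmat1 did not overlap between libraries. Among synapsins Syn2 went from 78.9% in RGL to 42.0% in NB1, 14.3% in GCimm1 and 51.0% in GCmat1, and Syn3 from 48.9% in NB1 to 77.6% in GCimm1 and 36.1% in GCmat1. Sv2b made up 66.0% of Sv2 UMIs in GCimm2 (49.8% to 77.8%) and 0.860% in GCmat1, where Sv2c had 59.0%. Rab3a went from 12.7% to 32.9% and Rab3c from 81.6% to 64.0%, with w4 and w8 apart in GCmat1 (52.5% and 75.5% Rab3c).

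In the other families, Cplx2 went from 72.5% in NB1 to 90.3% in GCmat1 and Cplx1 from 27.5% to 9.67%. Erc2 went from 79.2% to 90.0%, with Erc1 as the rest, and Ppfia2 from 82.6% to 96.6% of liprin UMIs and Ppfia1 from 7.82% to 1.31%. Syt1 went from 71.1% to 78.9% of the 7 synaptotagmins and Syt11 from 18.1% to 2.21%. Syngr3 had 25.8% of synaptogyrin UMIs in NB1 and 61.8% in GCmat1, against 74.2% and 38.2% for Syngr1. Ranges overlapped between NB1 and GCmat1 for Rab3b, Rab3c, Unc13c, Syt4, Syt7, Sv2a (54.8% and 40.1%), Sv2c (36.1% and 59.0%), Vamp1 (32.7% and 39.98%), Vamp2 (67.3% and 60.02%), Bsn (26.3% and 28.8%) and Pclo (73.7% and 71.2%).

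**Figure D4:**
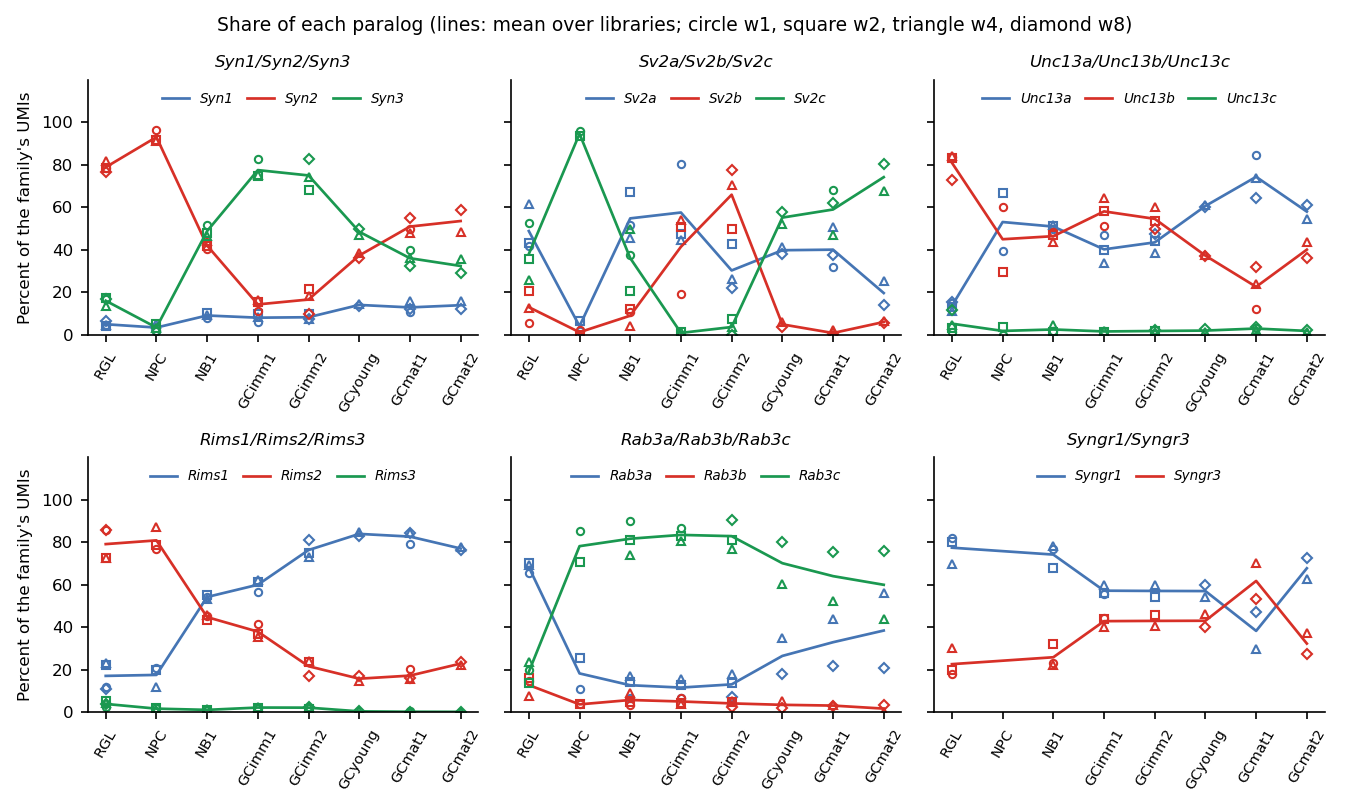
Share of each paralog in the UMIs of its family, in percent, by cluster, with 1 symbol a library (circle w1, square w2, triangle w4, diamond w8, only where the family had at least 20 UMIs) and lines through the means over libraries. Rims1 has a larger share than Rims2 from NB1 on, and Syn3 is the main synapsin in GCimm1 and GCimm2. Sv2c is near 0 in GCimm1 and GCimm2, where Sv2b has a large share, and returns. Syngr1 and Syngr3 cross in GCmat1 and cross back in GCmat2.

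Beside the main path, 3 of the 48 release genes were called from NB1 to NB2 and 8 from GCmat1 to GCmat2. Over all 13513 genes 397 and 986 were called. NB2, a second neuroblast cluster, had 3 genes higher than NB1 and 0 lower, against 1.81% and 1.13% of all genes. DESeq2 also gave 0 lower, and edgeR gave 2 lower at an unadjusted p of 0.05. Sv2c had 42.1, 29.2 and 205 CPM in NB2 of w1, w2 and w4, where w4 had only 18 nuclei, against 20.3, 11.7 and 26.9 in NB1 (log2 1.38 ± 0.27, adjusted p = 0.00052), a call DESeq2 did not make (1.99, adjusted p = 0.053). Amph had 146, 135 and 102 against 69.0, 91.2 and 73.9 (0.85 ± 0.21, adjusted p = 0.0073), a call not made without w1 (0.58, adjusted p = 0.61) or without the library term (0.83, adjusted p = 0.060). Unc13c, which fell outside the rule for named genes and was chosen after its values were seen, had 30.6, 35.9 and 0 against 3.14, 2.69 and 8.96 (3.26 ± 0.36).

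GCmat2, a small cluster of 60 nuclei in w4 and 149 in w8, had 4 genes higher and 4 lower than GCmat1 (3.01% and 4.28% of all genes). By library totals 5 were higher and 3 lower, against 479 and 503 of all 13513 genes. The median of all genes shifted by 0.10 on that scale. The 4 lower genes were all of the group of calcium sensors and C2 domain proteins. Syt7 had 195 and 203 CPM in w4 and w8 against 349 and 316 in GCmat1 of the same libraries (-0.89 ± 0.18), Syt13 39.8 and 46.0 against 72.9 and 94.7 (-1.16 ± 0.26), and Doc2b 30.9 and 33.4 against 74.6 and 54.7 (-1.03 ± 0.27). Rph3a had 117 and 99.3 against 204 and 129, and was not called by library totals, RLE size factors or DESeq2. Its call was also not made with thinned nuclei, without the library term, without w4 or without w8. The higher genes were Sv2c, at 159 and 225 against 42.4 and 62.4 (1.73 ± 0.22, adjusted p = 3.4e-08), Syngr1, at 48.6 and 47.8 against 15.3 and 18.0 (1.37 ± 0.23, adjusted p = 1.0e-05), Unc13b, at 135 and 86.7 against 46.9 and 61.4 (0.86 ± 0.23), and Sv2b. The last rests on 42 UMIs, with 15.5 and 15.3 against 1.94 and 0.434. Without w4, which leaves 1 library with GCmat2, the calls of Syt7 (-0.83, adjusted p = 0.067), Doc2b (-0.81, adjusted p = 0.29) and Unc13b (0.55, adjusted p = 0.53) were not made. Without w8 those of Syt13 (-1.20, adjusted p = 0.23) and Doc2b (-1.42, adjusted p = 0.083) were not made, and in either case 4 release genes were called in all, with 567 and 412 of all genes against 986. DESeq2 did not call Sv2c (1.61, adjusted p = 0.15), Syt13 (-1.59, adjusted p = 0.12) or Doc2b (-1.05, adjusted p = 0.31), and with thinned nuclei Unc13b, Syt13 and Doc2b missed the threshold (adjusted p from 0.051 to 0.054). Without the library term Syt13 (adjusted p = 0.15) and Doc2b (adjusted p = 0.22) were not called.

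Other genes of the release pathway, 64 that are not among the 48, were set beside them, and 58 were measured well enough to test. From NB1 to GCmat1 24 of the 58 rose and 5 fell (20.2% and 19.9% of all genes), and from NPC to NB1 19 rose and 2 fell (14.7% and 14.6%). From RGL to NPC 7 rose and 5 fell (13.7% and 15.9%), and from GCimm2 to GCyoung 6 rose and 2 fell (9.27% and 9.62%), with rises near the share over all genes. From NB1 to GCimm1 11 rose (7.76%), and from GCimm1 to GCimm2 10 rose and 3 fell (6.52% and 2.91%). The largest rises from NB1 to GCmat1 were those of Syt10, a synaptotagmin, by 5.94 on the log2 scale (adjusted p = 8.0e-14) and Rab27b, a GTPase of vesicle transport, by 5.03 (adjusted p = 1.8e-15). The largest falls were those of the synaptotagmins Syt9, which fell by 7.88 (adjusted p = 9.2e-20), and Syt6, which fell by 5.72 (adjusted p = 0.00059). Levels of these rising and falling genes are not given here, so the size of their changes may rest on few UMIs in the lower cluster.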

How the data were processed

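Single-nucleus RNA-seq (10x Chromium, 3′ chemistry) was made from 4 pooled samples, 1 at each of 1, 2, 4 and 8 weeks after tamoxifen, and groups were taken from the cohort labels. The promoter that drives Cre is not reported here. The deposited matrices hold UMI counts per gene and nucleus, which the authors obtained with STARsolo 2.7.4a on mouse genome GRCm38 from exonic and intronic reads, without multi-mapped reads. The annotation release was not given in the sources used here. The authors also deposited log2 values, log2 of the counts divided by scran size factors plus 1, with their clusters and pseudo-time, for nuclei left after they removed doublets, low-quality nuclei and a group of nuclei of w4. These 14367 of 17046 barcodes were used, and 732 of them, 220 in GCmat1, had no pseudo-time. Of the 48 genes, Snap25, Rims1, Erc2 and Ppfia2 were not found by symbol in the log2 table.

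Raw UMIs were summed per library and cluster where a cluster had at least 10 nuclei, and levels are CPM, the UMIs of a gene scaled to the same total in every sum. The 29 sums of Astro and of RGL to GCmat2 were fitted with edgeR 4.0.16 (quasi-likelihood, TMM, terms for cluster and library, 16 residual degrees of freedom, R 4.3.3), and p-values were adjusted by Benjamini-Hochberg over 13513 genes. The spread in this fit is between sums of nuclei, not between animals, and intervals on levels (exact Poisson) and shares (exact Clopper-Pearson) cover counting error only. Shares of nuclei were also computed with every nucleus thinned to 2000 UMIs, leaving out 141 nuclei below that. Pseudo-time was cut into 40 bins of equal numbers of nuclei with a running mean over 3. The scripts were tested on simulated data.

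The members, lists and tests were chosen with earlier results of these data known. Genes were named by rule: in each comparison the 3 largest rises and falls past the test with the same direction in every library and at least 50 UMIs, the earliest and latest onset in each role, and the paralogs whose share moved most from NB1 to GCmat1. Of the other release genes the 2 largest rises and falls from NB1 to GCmat1 were named. Other members are given to account for all 48 and were chosen after their values were seen. Alternatives were RLE size factors, DESeq2 1.42.0, no filter on low counts, no library term, at least 20 nuclei, a fold threshold of 2, thinned nuclei and leaving out each library. Library totals without normalization factors, and leaving out the w1 sum of GCmat1, were added after seeing the data.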

Additional observations from a re-analysis of the deposited data

Results flagged for a closer look

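Some genes moved one way in 1 library and the opposite way in another at the same step, each beyond the exact Poisson intervals of the levels. These differences between libraries were not tested, since each week is 1 pool. From NB1 to GCimm1 Rims1 changed by -108.617 CPM in w1 and by 48.645 in w2. From GCyoung to GCmat1 Rims1 changed by -151.77 in w4 and by 226.38 in w8, and Nsf by 89.321 in w4 and by -102.001 in w8. From GCmat1 to GCmat2 Rims1 changed by 259.36 in w4 and by -231.13 in w8, and Ppfia2 by 649.53 in w4 and by -147.89 in w8.

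Outside the clusters of the fit, Unc13c, the Munc13-3 priming factor, had 570.203 CPM in OPC (exact 95% Poisson interval 515 to 630, 4 libraries between 414 and 746), with a UMI in 76.3% of OPC nuclei. The highest of the fitted clusters was Astro, at 59.7. Unc13c overlaps 4 genes on the same strand.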

How the results depend on the processing

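Of the 44 named changes, 25 were called under every alternative tried, 19 were lost under at least 1 and none changed sign. With a fold threshold of 2, 11 release genes were called from NB1 to GCimm1, 6 from GCimm1 to GCimm2, 13 from GCimm2 to GCyoung, 2 from GCyoung to GCmat1 and 5 from GCmat1 to GCmat2, with 1089, 752, 1655, 349 and 725 of all 13513 genes against 1691, 1274, 2553, 520 and 986 at 1.5-fold. From GCyoung to GCmat1 DESeq2 called 3, the fit without a library term 3 and thinned nuclei 2 (229, 349 and 268 of all genes). From GCmat1 to GCmat2 the fit without a library term called 5 and thinned nuclei 4 (671 and 444 of all genes). Without 1 library, 10 to 14 release genes were called from RGL to NPC (2730 to 4025 of all genes). From NPC to NB1 21 to 31 were called (2550 to 4063), and from NB1 to GCimm1 12 to 17 (780 to 1751). Leaving out 1 library gave 6 to 13 calls from GCimm1 to GCimm2, 8 to 24 from GCimm2 to GCyoung, 0 to 5 from GCyoung to GCmat1, 4 to 8 from GCmat1 to GCmat2 and 22 to 34 from NB1 to GCmat1, with fewer sums in each such fit. Over all genes it gave 410 to 1286, 487 to 2618, 216 to 539, 412 to 1126 and 3505 to 5017 calls at these comparisons. Onset moved with its threshold. At 25% of the highest level 1 gene started in GCyoung or GCmat1 and 5 stood below the threshold in GCmat1. At 75% 20 genes started by NB1, 17 in GCimm1 or GCimm2 and 11 later, and 23 stood below the threshold in GCmat1. By the authors' log2 values 17 started by NB1 and 18 in GCimm1 or GCimm2. The median pseudo-time of onset was 4.96 at 25%, 14.6 at 75% and 14.6 in w4 alone. Clusters were compared within libraries through the library term. Between weeks no paired analysis was possible because each week is 1 library. Depth limits genes under about 20 CPM, such as Syt4 and Rab3b, and the clusters with few nuclei, such as GCmat1 of w1 (17), NPC of w4 (22) and GCimm2 of w8 (28). The causes of these shifts were not tested.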
